A study of Mus musculus with 4 samples.

Results

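Cycling macrophages of the mouse fracture callus were selected from 4 scRNA-seq libraries on the UMI counts of 6 genes, so the cells were chosen by measured values. A UMI (unique molecular identifier) stands for 1 captured mRNA molecule. A cell was called a cycling macrophage when it held at least 1 UMI of *Csf1r*, at least 2 of *Cd68*, at least 2 of *Mki67* and at least 1 of *Top2a*, with no more than 2 UMIs of *Mmp9* and no more than 10 of *Col1a1*. Of 25479 cells that passed the cell filter (4000 to 50000 UMIs, 2000 to 7000 genes and at most 8% mitochondrial UMIs), 334 met these limits. The comparison cells were 6330 macrophages that met the same *Csf1r* and *Cd68* limits and held no UMI of *Mki67* or *Top2a*, called non-cycling macrophages below. These cells were not held to the *Mmp9* and *Col1a1* limits.

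Callus was collected from C57BL/6J wild-type mice, 3 months old, at 4 and 7 days post fracture (dpf). RA mice carried arthritis induced by K/BxN serum, given on days 0 and 3 and every 5 days after that per the study's methods, and control mice received vehicle. RA is thus a passive transfer of serum, and every group, control included, carried a tibia fracture. Each of the 4 conditions (control_4d, control_7d, RA_4d and RA_7d) was 1 library from 1 pool of callus, of 4 fractures per the series' design text and of 3 mice per the study's methods. No condition had a replicate, so RA and control were not tested against each other, and library and condition cannot be told apart. Cells were not sorted, and all intervals are 95% intervals that cover counting error only.

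Macrophages can be replaced from the blood, by monocytes that enter a tissue and mature there, or by division of macrophages already in it. Signalling through CSF1R, the receptor for CSF1, sustains both survival and division. A cell enters the cycle when D-type cyclins with CDK4 or CDK6 phosphorylate the retinoblastoma protein and so release E2F factors, which switch on the genes of DNA replication in S phase. Later in the cycle the MuvB complex, with B-MYB and FOXM1, switches on the genes of mitosis (G2/M). In a healing fracture macrophages clear debris and act on the skeletal progenitors of the callus.

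Control_4d held 149 of these cells, control_7d 61, RA_4d 105 and RA_7d 19. Their summed UMIs came to 4822518, 1559715, 3092964 and 400490 in the same order of libraries, so that values of RA_7d rest on the fewest molecules. A cycling macrophage held a median of 32100, 24301, 28609 and 18916 UMIs in these libraries, against 14745.5, 11719.5, 15264 and 12425 in a non-cycling macrophage. The cycling cells were thus deeper in every library, and the shares of cycling cells are also given after all cells were thinned at random to 4000 UMIs. Their median mitochondrial share was 2.21%, 2.54%, 2.19% and 2.05%, against 2.03%, 2.29%, 1.80% and 2.18%. Scrublet called 3 of the 334 cells doublets, and 249 of the 6330 non-cycling cells. Between 5 and 15 barcodes of cells that passed the filter were shared by any pair of libraries, out of 4110 to 8223 such cells in a library.

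The gate genes chose the cells, and their values are given as a description. *Mki67*, a marker protein of cells in cycle, had a median of 8, 7, 8 and 8 UMIs per cycling macrophage in control_4d, control_7d, RA_4d and RA_7d. *Top2a*, the topoisomerase that untangles replicated chromosomes, had a median of 12, 14, 13 and 10. *Csf1r* had a median of 11, 6, 6 and 6 UMIs, and *Cd68*, a lysosomal glycoprotein of macrophages, 10, 6, 6 and 4. Of the 334 cells, 42 stood at the limit of 2 *Mki67* UMIs, with a median of 2 to 4 *Top2a* UMIs over the libraries. Just outside stood 88 cells with 1 *Mki67* UMI that met all the other limits, with a median of 1 or 2 *Top2a* UMIs. The *Mmp9* and *Col1a1* limits left out 67 cells that met the rest of the gate. The remaining 1332 *Csf1r Cd68* cells held a UMI of *Mki67* or *Top2a* but not enough for the gate, and belonged to neither class.

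Macrophage genes that the gate did not use were found in the cells at unequal shares. *Lyz2*, which encodes lysozyme, had a UMI in 98.7%, 98.4%, 98.1% and 100% of cycling macrophages of control_4d, control_7d, RA_4d and RA_7d, but also in 72.9%, 50%, 52.6% and 32.9% of cycling mesenchymal cells. *Adgre1*, which encodes F4/80, had one in 80.5%, 70.5%, 68.6% and 84.2%, and in 3.39%, 4.48%, 1.75% and 0% of the cycling mesenchymal cells of these libraries. *Fcgr1*, a high-affinity receptor for IgG, had one in 63.8%, 50.8%, 48.6% and 57.9%, against 0%, 1.49%, 0% and 0%. Mesenchymal cells are not known to express these 2 genes and were the deeper class here (median 39009, 31306, 36559 and 34084 UMIs). *Mertk* did not set the classes apart in this way, with a UMI in 41.6%, 34.4%, 37.1% and 36.8% of cycling macrophages and in 23.7%, 41.0%, 35.1% and 35.6% of cycling mesenchymal cells. At 4000 UMIs *Adgre1* was found in 45.0%, 29.5%, 41.9% and 47.4% of cycling and in 66.1%, 64.8%, 64.6% and 71.4% of non-cycling macrophages. *Adgre1* and *Fcgr1* were thus rare in cycling mesenchymal cells, while *Adgre1* was found in fewer cycling than non-cycling macrophages. The mesenchymal gate left out cells with *Csf1r*, so the contrast with mesenchymal cells was partly set by the gates and is a description.

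A small set of cells went against the label. In 9 of the 334 cells (1 of control_4d, 1 of control_7d, 4 of RA_4d and 3 of RA_7d), *Camp*, *Ngp* and *Ltf*, which encode proteins of neutrophil granules, summed to between 871 and 2247 UMIs, whereas no other cycling macrophage held more than 3. *S100a8*, *S100a9*, *Camp*, *Ngp* and *Ltf* made up between 18.5% and 24.2% of the UMIs of each of these 9 cells. They held 2 to 8 UMIs of *Csf1r*, 2 to 10 of *Cd68* and 2 to 22 of *Mki67*, and no doublet was called among them. They are called granule-rich cells below and were noticed after the values were seen. Results that rest on them are given with and without them unless stated otherwise. Although few, the granule-rich cells carried 81.6%, 69.8%, 85.7% and 99.1% of the UMIs of the neutrophil list in cycling macrophages of control_4d, control_7d, RA_4d and RA_7d. The list stood at 49315 CPM (UMIs of a gene or list per 1000000 UMIs of the class in a library) in RA_7d with these cells and at 562 CPM without them. Likewise 1 cell of control_7d held all 202 UMIs of *Cpa3*, a mast cell protease.

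The genes of DNA replication and of mitosis separated the classes by wide margins. The gate selects cells in cycle, so these differences are a description with no test. All 40 genes of the S-phase list and all 50 of the G2/M list were higher in the sums of cycling macrophages, with a median log2 difference of 2.78 and 4.58, where the median over all 12987 genes compared was -0.02. *Pclaf*, a partner of PCNA at the replication fork, stood at 321, 387, 385 and 432 CPM in cycling macrophages of control_4d, control_7d, RA_4d and RA_7d, against a mean of 2.10 CPM in non-cycling ones. *Rrm2*, the regulated subunit of ribonucleotide reductase, averaged 142 against 1.60 CPM. *Cdk1*, the kinase that drives entry into mitosis, stood at 167, 201, 176 and 175 CPM against 6.04, 6.77, 5.27 and 4.90 CPM. The 4 libraries lay close together for *Cdk1* within each class, and the classes were far apart. The largest log2 differences outside the lists were those of *Esco2* (8.63), *Pbk* (8.31), *Ska1* (7.83) and *Neil3* (7.52), which act in sister chromatid cohesion, in mitotic signalling, at the kinetochore and in repair of DNA bases. 

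Promoter sequences from RefSeq (GRCm38.p6) are shown for the 5 genes of the G2/M list with the largest differences among those in the promoter table, because the list moved as a block and its members share short sequence elements. The elements searched for, on either strand, were the cell cycle homology region core (CHR, TTTGAA or TTCAAA), the CCAAT box (CCAAT or ATTGG) and an E2F site (TTTGGCGC, TTTCCCGC or TTTCGCGC). Capitals mark the CHR and the CCAAT boxes, and where a CCAAT box on one strand runs into one on the other, both lie in 1 run of capitals. Each sequence runs 5′ to 3′ along the gene, from 200 bases before the annotated start to 30 bases after it.
Hmmr (chr11:40733408-40733637, minus strand): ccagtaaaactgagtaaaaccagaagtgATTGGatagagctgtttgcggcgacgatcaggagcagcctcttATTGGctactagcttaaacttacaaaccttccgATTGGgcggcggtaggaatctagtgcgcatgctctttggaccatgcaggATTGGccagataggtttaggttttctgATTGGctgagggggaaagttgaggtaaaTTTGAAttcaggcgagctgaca
Cenpf (chr1:189688057-189688286, minus strand): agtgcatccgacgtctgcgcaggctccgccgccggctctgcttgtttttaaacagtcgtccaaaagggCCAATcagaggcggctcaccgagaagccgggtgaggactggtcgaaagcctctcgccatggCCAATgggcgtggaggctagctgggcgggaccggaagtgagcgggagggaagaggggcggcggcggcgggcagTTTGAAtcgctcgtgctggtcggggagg
Bub1 (chr2:127831830-127832059, minus strand): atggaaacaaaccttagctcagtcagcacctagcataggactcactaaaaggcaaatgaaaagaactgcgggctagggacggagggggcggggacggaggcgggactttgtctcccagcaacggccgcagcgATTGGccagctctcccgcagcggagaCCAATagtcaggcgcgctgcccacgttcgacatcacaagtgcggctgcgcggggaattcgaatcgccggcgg
Kif11 (chr19:37376182-37376411, plus strand): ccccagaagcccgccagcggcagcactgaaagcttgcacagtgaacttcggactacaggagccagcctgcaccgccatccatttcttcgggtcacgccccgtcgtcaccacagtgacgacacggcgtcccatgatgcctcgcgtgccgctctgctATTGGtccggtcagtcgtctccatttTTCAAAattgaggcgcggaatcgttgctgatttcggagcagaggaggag
Ube2c (chr2:164769729-164769958, plus strand): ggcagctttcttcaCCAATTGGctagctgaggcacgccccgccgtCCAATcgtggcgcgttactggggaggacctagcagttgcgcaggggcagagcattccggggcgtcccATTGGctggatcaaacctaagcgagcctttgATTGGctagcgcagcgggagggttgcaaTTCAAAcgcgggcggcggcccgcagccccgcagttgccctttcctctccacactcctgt
*Hmmr*, a spindle-associated receptor of hyaluronan, averaged 80.4 CPM in cycling and 0.554 CPM in non-cycling macrophages. *Cenpf*, a kinetochore protein, averaged 121 against 0.903 CPM, and *Bub1*, a kinase of the spindle checkpoint, 59.4 against 0.450 CPM. *Kif11*, the motor that separates the spindle poles, averaged 115 against 1.22 CPM, and *Ube2c*, which marks mitotic proteins for destruction, 310 against 3.61 CPM. A CHR core was found in 4 of these 5 windows, from base 9 after the start in *Hmmr*, base 3 in *Cenpf*, base -19 in *Kif11* and base -29 in *Ube2c*. In *Bub1* none was found in this window, which held CCAAT boxes at -68 and -42.

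The same search was made from base -250 to base 50 around the start of every gene in the table. A CHR core was present in 29 of the 43 G2/M genes with a promoter there (67.4%), in 4 of 31 S-phase genes (12.9%) and in 4893 of 27025 genes overall (18.1%). CCAAT boxes were present in 74.4% of the G2/M and 71.0% of the S-phase genes, against 37.9% overall. E2F sites showed the opposite split, with 41.9% of the S-phase genes, 2.33% of the G2/M genes and 1.91% of all genes. A CHR core together with a CCAAT box was present in 53.5% of the G2/M genes and in 7.12% of all genes. Among the 10002 tested genes with a promoter in the table, the shares were 12.3% for the CHR, 38.9% for the CCAAT box, 3.66% for the E2F site and 5.20% for the CHR with a CCAAT box. These matches are letters in a window and do not show that a factor binds there.

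To see where the cells stood in the cycle, UMIs of the S-phase and G2/M lists were counted per cell after thinning. The S-phase list had a median of 35, 27.5, 35 and 22.5 UMIs per 10000 in control_4d, control_7d, RA_4d and RA_7d, and the G2/M list 45, 55, 60 and 62.5. Both medians were 7.5 in non-cycling macrophages of every library. The S-phase count exceeded the G2/M count in 41.6%, 36.1%, 39.0% and 36.8% of cycling macrophages, whose intervals overlapped across the 4 libraries (the widest, RA_7d, from 16.3% to 61.6%). In non-cycling macrophages, at their low counts, it did so in 43.9%, 40.8%, 40.1% and 39.0%, so this share by itself does not mark cycling cells. The plot of S-phase against G2/M UMIs shows every cell. Since *Mki67* and *Top2a* are themselves highest late in the cycle, cells in G1 are under-represented by the gate.

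**Figure D1:**
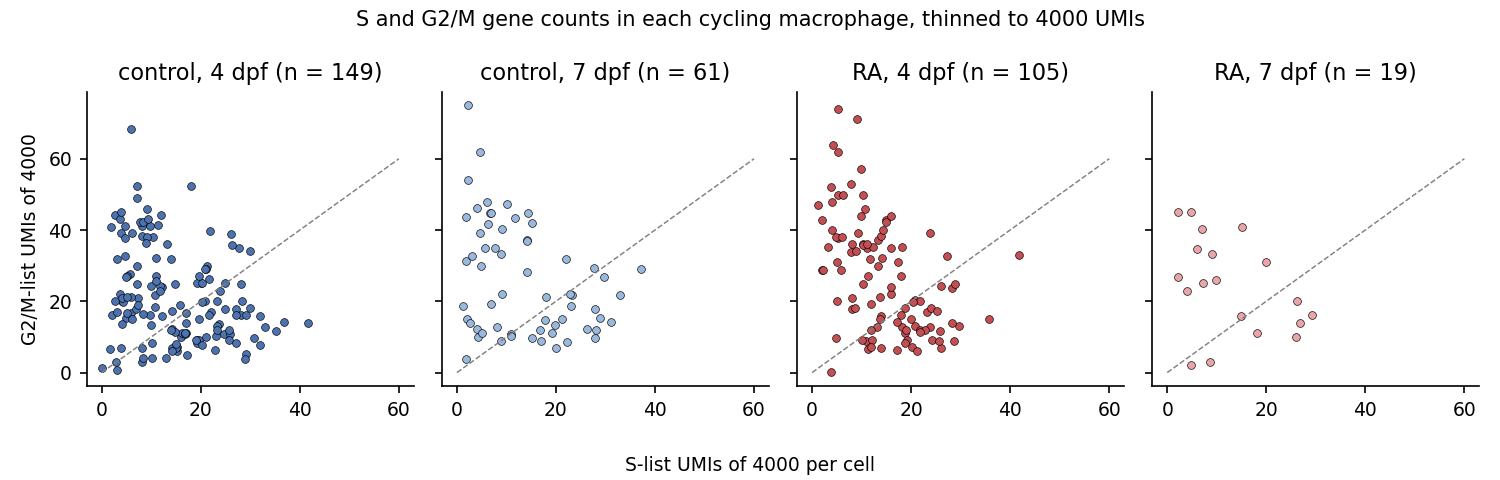
Each point is 1 cycling macrophage after thinning to 4000 UMIs, with its UMIs of the S-phase list on the x axis and of the G2/M list on the y axis (UMIs of 4000, slightly jittered), in 1 panel per library. Points right of the diagonal held more S-phase than G2/M UMIs, which was so for 41.6%, 36.1%, 39.0% and 36.8% of cells in control_4d, control_7d, RA_4d and RA_7d.

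The share of cycling cells among *Csf1r Cd68* macrophages was lower at 7 dpf than at 4 dpf in both conditions. It was 5.51% (149 of 2704 cells, exact Clopper-Pearson interval 4.68% to 6.44%) in control_4d and 2.70% (2.07% to 3.46%) in control_7d. In RA callus it was 5.98% (4.92% to 7.20%) at 4 dpf and 1.41% (0.851% to 2.19%) at 7 dpf. The ratio of 7 to 4 dpf was 0.491 (0.358 to 0.665) in control and 0.236 (0.136 to 0.386) in RA callus. At 4 dpf the RA to control ratio was 1.09 (0.838 to 1.40), within counting error of 1. At 7 dpf it was 0.521 (0.294 to 0.885). After thinning, with the *Mki67* limit lowered to 1 UMI, it was 0.659 (0.318 to 1.29), an interval that includes 1. With the stricter gate it was 0.571 (0.288 to 1.07), an interval that also includes 1. Left without the granule-rich cells, the ratio at 7 dpf was 0.445 (0.239 to 0.783). Thinned shares were 3.14%, 1.46%, 3.53% and 0.964% in control_4d, control_7d, RA_4d and RA_7d, in the same order as the unthinned ones. These shares are of macrophages in the suspension, and they do not give the number of macrophages in a callus.

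**Figure D2:**
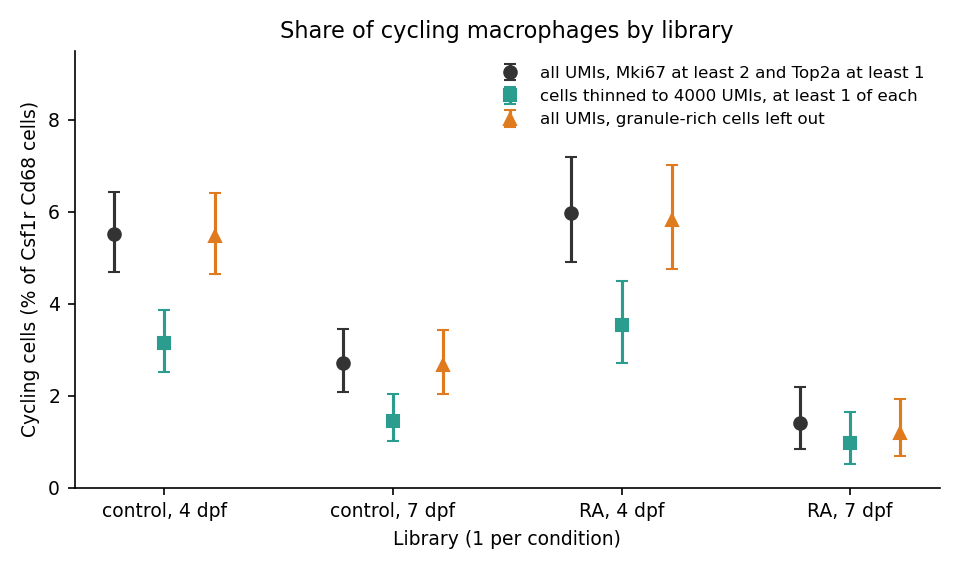
The y axis gives the percent of *Csf1r Cd68* macrophages that were cycling in each of the 4 libraries (x axis), with exact 95% Clopper-Pearson bars, for all UMIs, for cells thinned to 4000 UMIs and with the granule-rich cells left out. In thinned cells at least 1 UMI each of *Mki67* and *Top2a* was required. With all UMIs the 7 dpf libraries (2.70% and 1.41%) lie under the 4 dpf libraries (5.51% and 5.98%).

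Other cell types of the same libraries were gated with the same *Mki67* and *Top2a* limits. Of mesenchymal cells 6.58%, 4.70%, 7.93% and 1.97% were cycling in control_4d, control_7d, RA_4d and RA_7d, and of endothelial cells 9.03%, 7.48%, 12.0% and 2.75%. RA_7d was the lowest library in these 2 types as in macrophages, but not in T cells, with 6.90%, 14.5%, 6.45% and 12.9% of 29, 62, 62 and 85 cells. After thinning, with the same lowered *Mki67* limit, the mesenchymal shares were 1.90%, 2.21%, 2.36% and 1.02% and the endothelial shares 4.12%, 4.73%, 4.84% and 2.02%. In both types control_4d was then not above control_7d, with overlapping intervals. A looser cell filter had no upper limits on UMIs or genes. With it, cycling mesenchymal cells numbered 296, 279, 223 and 132 in control_4d, control_7d, RA_4d and RA_7d. With the filter used here they numbered 59, 134, 57 and 73, so unequal parts of this class were left out by library. No mesenchymal or endothelial shares with the looser filter are given. Among cells of the neutrophil gate 61.4% were cycling in RA_4d (35 of 57 cells). The shares were 14.3%, 34.8% and 25% in control_4d, control_7d and RA_7d, each of which held 14 to 23 such cells. After thinning the neutrophil shares were 14.3%, 13.0%, 36.8% and 18.8% in control_4d, control_7d, RA_4d and RA_7d.

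Complement C1q and *Ly6c2* marked cycling macrophages that hardly overlapped. *C1qa* and *C1qb* encode chains of C1q and mark mature tissue macrophages, and *Ly6c2* encodes the Ly6C antigen of inflammatory monocytes. This split was made after the values were seen, so no test is given. With at least 10 UMIs taken as positive, 107 of 149, 33 of 61, 50 of 105 and 10 of 19 cells of control_4d, control_7d, RA_4d and RA_7d were positive for C1q alone. Cells positive for *Ly6c2* alone numbered 4, 11, 21 and 5, and 2 cells of all 334 were positive for both. With the granule-rich cells left out, 4, 11, 17 and 3 cells were positive for *Ly6c2* alone, of 148, 60, 101 and 16. *Ly6c2* cells were 2.68% (0.736% to 6.73%) and 18.03% (9.36% to 30.0%) of cycling macrophages of control callus at 4 and 7 dpf, and 20% (12.8% to 28.9%) and 26.3% (9.15% to 51.2%) of those of RA callus. With all cells control_4d stood below the other libraries, whose intervals overlapped. No intervals are given without the granule-rich cells, where the RA_7d share rests on 3 of 16 cells. In non-cycling macrophages the share of *Ly6c2* cells was 1.18%, 2.65%, 2.92% and 1.14%. With at least 2 UMIs as the limit in thinned cells, 2.68%, 19.7%, 20% and 21.1% of cycling macrophages were positive for *Ly6c2* alone, against 2.11%, 3.41%, 5.23% and 2.36% of non-cycling ones.

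**Figure D3:**
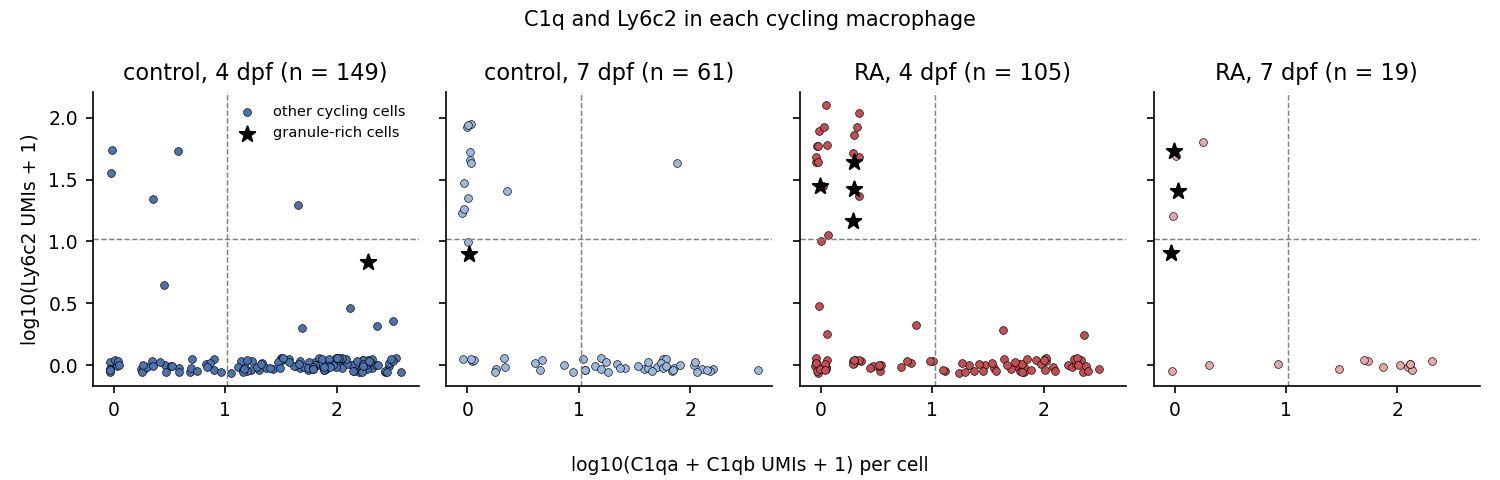
Each point is 1 cycling macrophage, with its UMIs of *C1qa* and *C1qb* together on the x axis and of *Ly6c2* on the y axis (UMIs plus 1, log scales, slightly jittered), in 1 panel per library, and granule-rich cells are marked apart. The C1q and the *Ly6c2* cells lie along separate axes, and control_4d held 4 cells positive for *Ly6c2* alone against 21 in RA_4d.

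With the granule-rich cells set apart, 201 cells were C1q-positive, the 2 cells positive for both among them, 35 were positive for *Ly6c2* alone and 89 for neither. Their other genes differed in kind, again as a description. *Pf4*, a chemokine that tissue macrophages make, stood at 1833 CPM in the sum of the C1q cells and 6.28 CPM in that of the *Ly6c2* cells. *Mrc1*, the mannose receptor, stood at 727 and 1.05 CPM. *Thbs1* (thrombospondin 1) and *Vcan* (versican), both high in monocytes, stood at 1120 and 617 CPM in the *Ly6c2* cells and at 114 and 20.9 CPM in the C1q cells. The cells positive for neither were highest in 3 genes of osteoclast formation. *Nfatc1*, its transcription factor, stood at 323 CPM there against 82.3 CPM in C1q and 26.2 CPM in *Ly6c2* cells. *Acp5*, which encodes TRAP, stood at 364, 111 and 3.14 CPM, and *Ctsk*, the collagen-degrading cathepsin K, at 360, 42.8 and 6.28 CPM. *H2-Ab1*, a chain of MHC class II, was also highest there, at 823 CPM against 492 and 69.1 CPM.

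The cell cycle machinery itself was not the same in these groups. *Ccnd1*, the D-type cyclin induced by growth factor signals, stood at 243, 133, 154 and 74.996 CPM in C1q cells of control_4d, control_7d, RA_4d and RA_7d. In *Ly6c2* cells it stood at 0, 3.65, 2.06 and 0 CPM, so the groups did not overlap in any library. *Ccnd3*, another D-type cyclin, stood at 52.8, 59.1, 60.4 and 121 CPM in C1q cells and at 186, 183, 272 and 211 CPM in *Ly6c2* cells. *E2f2*, an activating E2F factor, was higher in *Ly6c2* cells in each library (119, 161, 194 and 211 CPM against 45.3, 63.7, 33.1 and 57.7 CPM), whereas *E2f1* went the other way (19.9 against 66.4 CPM over all libraries). *Cdkn2d*, which encodes the CDK4 and CDK6 inhibitor p19INK4D, stood at 342, 292, 247 and 341 CPM in *Ly6c2* cells and at 68.5, 59.1, 67.0 and 63.5 CPM in C1q cells. *Cdkn1b* (p27) stood at 139 against 55.5 CPM and *Cdk6* at 44.0 against 130 CPM. *Cdk1*, by contrast, stood at 188 and 178 CPM. The S-phase count exceeded the G2/M count in 3 of 35 *Ly6c2* cells (8.57%) and in 90 of 201 C1q cells (44.8%). It did so in 35 of 89 cells positive for neither (39.3%). By library (control_4d, control_7d, RA_4d and RA_7d) it was so in 0 of 4, 0 of 11, 2 of 17 and 1 of 3 *Ly6c2* cells. In C1q cells the shares were 43.0%, 47.1%, 48% and 40%. The pooled groups thus also differed in where their cells stood in the cycle, without a test. In RA_7d the 2 shares lay close (33.3% against 40%). The part of cycle position in the cyclin differences was not tested. With 4, 11, 17 and 3 *Ly6c2* cells per library, their values rest on few cells.

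**Figure D4:**
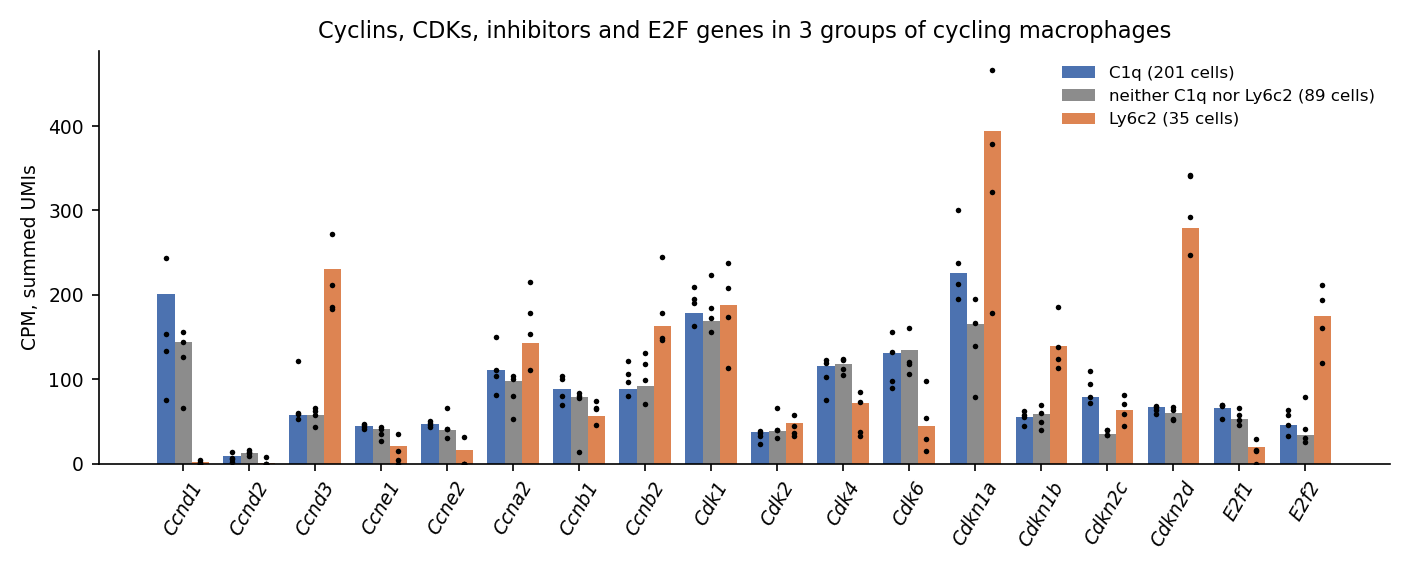
Bars give the level (CPM, y axis) of the genes on the x axis in the summed UMIs of 201 C1q, 89 neither and 35 *Ly6c2* cycling macrophages, granule-rich cells left out, and points give the 4 libraries. *Ccnd1* was near 0 in the *Ly6c2* points (0 to 3.65 CPM) and *Ccnd3* and *Cdkn2d* were high there (183 to 272 and 247 to 342 CPM).

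Cycling and non-cycling macrophages were then compared across all genes. UMIs were summed per library and class, giving 4 pairs, and tested with edgeR's quasi-likelihood test, with the library as a block and Benjamini-Hochberg adjustment over 12987 genes. Of these, 2542 were higher in cycling macrophages (19.6% of genes tested) and 2308 were lower (17.8%), at an adjusted p under 0.05. The p-values measure how steady a difference was over the 4 libraries, between classes that were themselves cut by 2 cell cycle genes. Because cycling cells were deeper, cycling macrophages were also compared with 3 non-cycling cells per cycling cell, matched on UMIs. This gave 1770 higher and 1821 lower genes of 11201 tested, against which list counts with matched depth should be read. 

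Among the cyclins, CDKs and their regulators, 23 of 31 genes were higher and 3 lower, as a description. *Ccna2*, *Ccnb1* and *Foxm1*, which act in S phase and mitosis, averaged 106, 74.8 and 42.5 CPM, against 0.585, 1.20 and 0.863 CPM. *Ccnd1* was higher in cycling macrophages in 4 of 4 libraries (213, 106, 122 and 44.9 CPM against 59.3, 38.3, 59.8 and 23.8 CPM). *Ccnd2* was lower in 4 of 4, with a log2 difference of -1.07, and of -0.68 when both classes were held to the same *Mmp9* and *Col1a1* limits. It is also high in cycling mesenchymal cells, whose genes were higher in the non-cycling macrophages (*Col3a1* averaged 1033 against 107 CPM), and their part in this difference was not tested. Of the inhibitors, *Cdkn2c* (p18) averaged 65.5 against 11.1 CPM, *Cdkn2d* 104 against 44.1 CPM, *Cdkn1a* (p21) 229 against 294 CPM and *Cdkn1b* 69.7 against 72.2 CPM. *Rb1*, which encodes the retinoblastoma protein, averaged 84.1 and 84.4 CPM. 

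Genes for the synthesis of nucleotides and of ribosomes were higher in the cycling cells. All 17 genes of nucleotide synthesis tested were higher in cycling macrophages (median log2 difference 1.52), also with matched depth. *Tk1*, which salvages thymidine, stood at 111, 73.7, 99.9 and 87.4 CPM in control_4d, control_7d, RA_4d and RA_7d, against 2.72, 2.68, 2.79 and 1.16 CPM. *Dut*, which keeps uracil out of DNA, stood at 180, 149, 182 and 150 CPM against 13.6, 14.5, 15.6 and 11.1 CPM. Neither gene overlapped between the classes, with log2 differences of 5.24 (SE 0.19) and 3.56 (SE 0.10). Both act in S phase, which the gate selects, so these values are a description with no test. All 15 genes of ribosome biogenesis were higher (median 0.81), and 13 with matched depth. *Dkc1*, which modifies ribosomal RNA, averaged 49.9 against 16.5 CPM (log2 difference 1.63, SE 0.15, edgeR quasi-likelihood adjusted p = 4.44e-05).

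Energy genes moved less. Of 20 genes of oxidative phosphorylation 14 were higher and none lower (median 0.32), led by *Atp5b*, a subunit of ATP synthase (log2 difference 0.57), but with matched depth 0 were higher and 1 was lower. Leaving out 1 library gave between 6 (without control_7d) and 14 higher genes. Of 14 glycolysis genes 6 were higher, *Pgk1* the most (0.51), 2 without control_7d and 0 after thinning. Cholesterol synthesis did not move one way, with 2 of 17 genes higher and 2 lower.

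Genes of the mature macrophage were lower in the cycling cells. On the list of macrophage identity 8 of 9 genes were lower and 0 higher (median -1.002), and 6 with matched depth. *Mertk*, a receptor for the uptake of dead cells, stood at 37.7, 34.6, 36.5 and 27.5 CPM in control_4d, control_7d, RA_4d and RA_7d, against 108, 98.9, 110 and 119 CPM in non-cycling macrophages. No library's value crossed into the range of the other class, and the log2 difference was -1.62 (SE 0.11, edgeR quasi-likelihood adjusted p = 6.81e-06). *Aif1* and *Adgre1* fell by 1.02 and 1.09 on the log2 scale, and *Itgam*, which encodes CD11b, averaged 187 against 232 CPM and was not called (adjusted p = 0.0680 by the same edgeR test). All 15 lysosome genes were lower (median -0.87), 14 of them with matched depth. *Ctss*, the cathepsin that trims the MHC class II invariant chain, stood at 988, 961, 962 and 941 CPM against 2411, 2279, 2183 and 2222 CPM (log2 difference -1.26, SE 0.07, edgeR quasi-likelihood adjusted p = 1.04e-06).

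The lists of macrophage states followed the same direction. Of the genes of resident-like macrophages 9 of 11 were lower and 0 higher. *Selenop*, the secreted selenium carrier, stood at 479, 226, 409 and 799 CPM against 1732, 1663, 1651 and 2851 CPM, a log2 difference of -2.16 (SE 0.16, edgeR quasi-likelihood adjusted p = 1.27e-05). *Spp1*, which encodes osteopontin and marks macrophages of repair, stood at 2030, 845, 571 and 277 CPM against 6385, 1934, 1819 and 972 CPM (log2 difference -1.59, SE 0.10, adjusted p = 5.49e-06 by the same edgeR quasi-likelihood test). Both classes had their highest *Spp1* level in control_4d and their lowest in RA_7d. MHC class II genes were lower in 6 of 8 cases and higher in 0, led by *H2-Eb1* and *H2-Aa* (log2 differences -1.27 and -1.26), and 3 of 7 were lower with matched depth.

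Lists of stress and signalling genes differed in how many members were lower. Immediate early genes, which answer stimuli and cell stress within minutes and can be induced by tissue digestion, were lower in 11 of 12 cases, 6 with matched depth. *Atf3* stood at 119, 124, 107 and 247 CPM against 293, 282, 256 and 400 CPM (log2 difference -1.15). Inflammatory genes were lower in 6 of 15 cases, led by the chemokine gene *Ccl4* (-1.39). With matched depth 2 of 14 were lower, near the share over all genes (1821 of 11201), and 1 was higher. Of 14 interferon response genes 9 were lower, *Irf7* among them (-1.40), but 0 with matched depth, and 5 without control_4d or without RA_4d. Among growth signals and transcription factors 9 of 20 were lower and 0 higher. *Maf*, a transcription factor of mature macrophages, stood at 250, 150, 214 and 337 CPM against 549, 466, 622 and 567 CPM (log2 difference -1.30, SE 0.14, edgeR quasi-likelihood adjusted p = 0.000102), with no overlap between the classes. *Spi1*, which encodes the myeloid factor PU.1, averaged 411 against 407 CPM and was not called (adjusted p = 0.936 by the edgeR quasi-likelihood test).

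**Figure D5:**
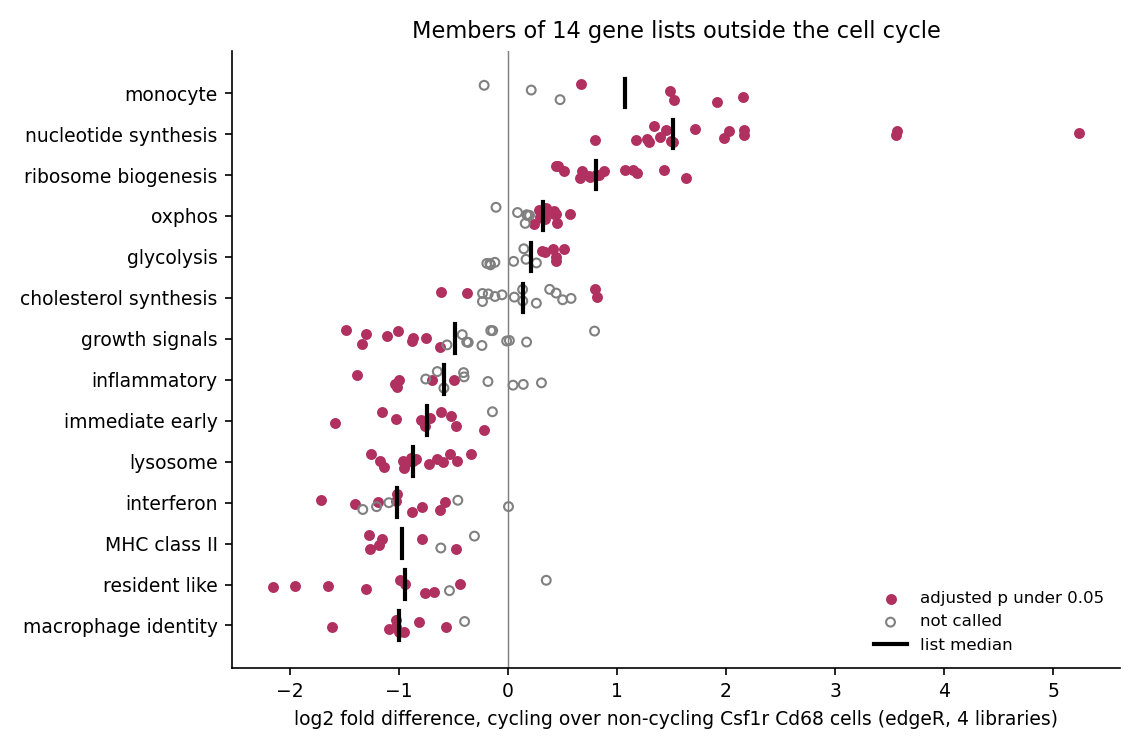
Each point is a gene of 1 of 14 gene lists outside the cell cycle (y axis), placed by its log2 difference between cycling and non-cycling macrophages (x axis), filled where the edgeR adjusted p was under 0.05, with a bar at the list's median. Nucleotide synthesis (median 1.52) and ribosome biogenesis (0.81) lie right of 0, and lysosome (-0.87) and macrophage identity (-1.002) left of it.

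Monocyte genes went against this trend. Of 8 genes on the list 5 were higher in cycling macrophages and 0 lower, with or without the granule-rich cells. *Ly6c2* stood at 44.4, 360, 373 and 537 CPM in control_4d, control_7d, RA_4d and RA_7d, against 52.5, 78.6, 92.0 and 40.9 CPM in non-cycling macrophages. The difference was absent in control_4d and present in the other 3 libraries (log2 difference 1.92, SE 0.49, edgeR quasi-likelihood adjusted p = 0.0134). *Hp*, which encodes haptoglobin, was higher in 4 of 4 libraries (log2 difference 1.48), and *Ccr2*, the chemokine receptor of monocytes, averaged 224 against 184 CPM and was not called. Leaving out 1 library at a time, between 2 (without control_7d) and 6 (without control_4d) of the 8 genes were higher. Genes of granulocyte and monocyte progenitors were higher in 4 of 6 cases. *Prtn3*, which encodes proteinase 3, stood at 22.2, 93.6, 79.5 and 110 CPM against 4.59, 3.40, 8.02 and 6.37 CPM (log2 difference 3.54, SE 0.35, edgeR quasi-likelihood adjusted p = 7.43e-05). Without the granule-rich cells it stood at 22.3, 71.1, 81.1 and 45.0 CPM in cycling macrophages, with a log2 difference of 3.24, and 4 of the 6 progenitor genes were higher and 1, *Cd34*, lower. With all cells *Cd34* was not called and lay lower in 4 of 4 libraries. With matched depth 1 of the 3 progenitor genes left to test was higher and 1 lower.

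The neutrophil list had 4 of 8 genes higher and 2 lower with all cells, and 2 of 6 higher and 1 lower with the granule-rich cells left out. *Csf3r* and *Retnlg*, which mark mature neutrophils, were the 2 lower genes with all cells (log2 differences -1.60 and -2.70). Among the other lists, T and NK cell genes had 1 gene left to test, *Nkg7*, which was higher (log2 difference 2.00) but not called without the granule-rich cells, B cell genes 1 of 2 lower, endothelial genes 1 of 6 lower, erythroid genes 2 of 2 lower, osteoclast genes 1 of 6 higher (*Nfatc1*, 0.50) and 2 lower (*Ctsk*, -1.73, and *Acp5*, -0.89), and dendritic cell genes 0 of 4 called. With the same *Mmp9* and *Col1a1* limits in both classes, 3 of the 6 osteoclast genes were higher and 0 lower. No muscle or mast cell gene passed the filter on low counts. The T cell genes *Cd3d*, *Cd3e* and *Cd3g* reached at most 0.415 CPM in any library's cycling macrophages.

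All 8 mesenchymal genes were lower in cycling macrophages (median -2.90), where the gate set a limit on *Col1a1* and the comparison cells had none. *Col3a1*, the most abundant of them, averaged 107 against 1033 CPM. The list summed to 153, 254, 77.6 and 489 CPM in cycling and to 711, 2673, 394 and 6575 CPM in non-cycling macrophages of control_4d, control_7d, RA_4d and RA_7d. The 10 largest falls, none of them on the mesenchymal list, ran from *Pdzrn3* (-4.37), *Igfbp5* (-4.21) and *Bicc1* (-4.03) to *Slit3* (-3.52). When the comparison cells were held to the same *Mmp9* and *Col1a1* limits, 4 of the 8 mesenchymal genes were lower. Of the 10 largest falls, *Ibsp*, *Fmod* and *Slit3* were then no longer called, and no value is given for *Pdzrn3*. Under these limits, and chosen after their values were seen, macrophage genes were among the largest falls. *Apoe*, the lipid carrier of macrophages, stood at 3420, 2106, 2595 and 5351 CPM against 13400, 19981, 10147 and 20356 CPM. *Ccl8*, a chemokine of tissue macrophages, stood at 518, 85.3, 237 and 577 CPM against 1853, 939, 1084 and 2566 CPM. Both were lower in every library, with log2 differences of -2.34 and -2.44.

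To see what was particular to macrophages among dividing cells, they were compared with cycling mesenchymal cells that met the same *Mki67* and *Top2a* limits. RA_7d was left out of this comparison, because it held 19 cycling macrophages where at least 20 cells were required, so 3 libraries entered. The looser cell filter held more cycling mesenchymal cells than the filter used here, as given above. Of 11422 genes tested 2970 were higher in cycling macrophages (26% of genes tested) and 3364 were lower (29.5%). Of the S-phase list 24 of 40 genes were higher in macrophages and 0 lower (median 0.57). The G2/M list was mixed, with 14 of 50 higher and 10 lower (median 0.07). *Pcna*, the clamp of DNA polymerases, averaged 463 CPM in macrophages and 146 CPM in mesenchymal cells (log2 difference 1.61, SE 0.12, edgeR quasi-likelihood adjusted p = 1.72e-05), and *Mcm5* and *Mcm6*, subunits of the replicative helicase, differed by 1.5002 and 1.49.

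The regulators of the cycle differed by lineage. *E2f2* stood at 46.0, 72.4 and 60.8 CPM in cycling macrophages of control_4d, control_7d and RA_4d, against 8.50, 11.9 and 12.4 CPM in cycling mesenchymal cells. This was the largest difference toward macrophages in the cell cycle lists (log2 2.40, SE 0.18, edgeR quasi-likelihood adjusted p = 1.93e-05). *Rbl1*, the pocket protein p107, averaged 53.7 against 17.6 CPM. In the other direction *Ccnd2* stood at 13.9, 7.05 and 4.20 CPM in macrophages against 80.9, 74.0 and 122 CPM in mesenchymal cells (log2 difference -3.46, SE 0.38, edgeR quasi-likelihood adjusted p = 0.000159). *Cdkn2b* (p15), at 0.391 against 19.9 CPM, *Cdkn2a* (p16 and p19ARF) and *Cdkn1c* (p57) were lower in macrophages too, by log2 differences of -5.57, -3.98 and -3.44. *Cdkn1a* (p21) and *Ccnd1* went the other way, at 221 against 79.5 CPM and 147 against 61.4 CPM (log2 differences 1.43 and 1.18). *Myc*, which drives growth and division, averaged 18.6 against 49.4 CPM.

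RA and control were compared at each time by the ratio of CPM, with a pseudocount of 1 CPM on the log2 scale and with genes of at least 50 UMIs over both libraries. At 4 dpf 118 of 9143 genes were at least 1 log2 unit higher in RA (1.29%) and 120 lower (1.31%). At 7 dpf, with 19 RA cells, 189 of 5648 were higher (3.35%) and 304 lower (5.38%). Of 5639 genes compared at both times, 28 were higher at both (0.497%) and 17 lower at both (0.301%). Without the granule-rich cells 6 were higher and 18 lower of 5482. These are differences between libraries and were not tested.

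The genes higher in RA at both times were mostly those of the granule-rich cells. *S100a9*, which encodes a calcium-binding alarmin of neutrophils and monocytes, stood at 539, 1772, 4123 and 19299 CPM in the sums of control_4d, control_7d, RA_4d and RA_7d. Without those cells it stood at 59.3, 445, 755 and 41.8 CPM, so that at 7 dpf the RA library went from above to below the control library. *Chil3*, a chitinase-like protein of monocytes and neutrophils, remained higher in RA at both times. Its log2 ratios were 3.57 and 3.27 with all cells and 3.90 and 1.49 without the granule-rich cells. In non-cycling macrophages its log2 ratio was 2.63 at 4 dpf and -0.42 at 7 dpf, the opposite direction. *Plcb1*, a phospholipase C, ranked first by the same rule once the granule-rich cells were left out. It stood at 75.02 against 23.4 CPM at 4 dpf (ratio 3.21, 2.55 to 4.07) and 193 against 58.0 CPM at 7 dpf (3.32, 2.36 to 4.66).

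The genes lower in RA at both times numbered about as many without those cells. *AA467197*, whose transcript carries the microRNA miR-147, stood at 94.97 CPM in control_4d and 8.41 in RA_4d, and at 109 CPM in control_7d and 12.5 in RA_7d (ratios 0.0885, 0.0572 to 0.131, and 0.115, 0.0367 to 0.273). In RA_7d this rests on 5 UMIs, all of them in granule-rich cells. Without those cells the ratios were 0.0604 (0.0349 to 0.0977) at 4 dpf and 0 (0 to 0.108) at 7 dpf. The log2 ratio of *AA467197* in non-cycling macrophages was -0.84 at 4 dpf and 0.33 at 7 dpf, the opposite direction. *Pdpn*, which encodes podoplanin, stood at 92.9 against 13.6 CPM at 4 dpf and 60.3 against 9.99 CPM at 7 dpf. *Spp1* stood at 2030 against 571 CPM (ratio 0.281, 0.267 to 0.296) and at 845 against 277 CPM (0.328, 0.268 to 0.398). In non-cycling macrophages its log2 ratio was -1.81 at 4 dpf and -0.99 at 7 dpf, so the same direction was present outside the cycle. With the looser gate, which takes cells with 1 *Mki67* UMI, the log2 ratio in cycling macrophages at 7 dpf was 0.50, the opposite direction. *Ifitm1*, *Rgs1*, *Clec4n*, *Arhgap24* and *Slc11a1* were the other genes named by the rule, with log2 ratios from -0.86 to -2.11. Of these *Clec4n* at 4 dpf and *Arhgap24* and *Slc11a1* at both times fell by less than 1 log2 unit, and after thinning *Slc11a1* stood at 0.097 at 7 dpf, the opposite direction.

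The S-phase and G2/M lists differed little in their medians between RA and control. The S-phase list had median log2 ratios of -0.05 and 0.16 at 4 and 7 dpf, and the G2/M list 0.15 and -0.23, where the median of all genes was 0.01 and -0.08. Single genes of the cyclin list differed more. The RA to control ratio of *Ccnd1* was 0.574 (0.509 to 0.646) at 4 dpf and 0.422 (0.244 to 0.688) at 7 dpf, and that of *Ccnd3* was 1.75 (1.49 to 2.06) and 1.69 (1.19 to 2.36). Without the granule-rich cells *Ccnd1* stood at 214, 108, 125 and 57.8 CPM in control_4d, control_7d, RA_4d and RA_7d. No *Ccnd3* ratio without them is given. Monocyte genes had a median of 2.13 at 4 dpf, with 6 of 8 at least 1 log2 unit higher in RA, and 0.71 at 7 dpf, with 3 of 8. In non-cycling macrophages their medians were 0.85 and 0.02, so the direction at 4 dpf was present outside the cycle too. Without the granule-rich cells the medians in cycling macrophages were 1.94 and 0.53, with 6 of 8 and 1 of 7 genes at least 1 log2 unit higher. Cells positive for *Ly6c2* alone were 4 of 149 in control_4d and 21 of 105 in RA_4d, and their part in these medians was not tested.

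Between 4 and 7 dpf, 126 of 8723 genes were at least 1 log2 unit higher at 7 dpf in control (1.44%) and 111 lower (1.27%). In RA 222 of 7382 were higher (3.01%) and 564 lower (7.64%). Of 7354 genes compared in both, 26 were higher in both conditions (0.354%) and 8 lower in both (0.109%), and without the granule-rich cells 11 and 7 of 7186. *Ccnd1* stood at 213 CPM in control_4d and 106 in control_7d, and at 122 CPM in RA_4d and 44.9 in RA_7d (ratios 0.4998, 0.422 to 0.589, and 0.368, 0.216 to 0.589). Without the granule-rich cells its ratios were 0.505 (0.426 to 0.595) in control and 0.461 (0.270 to 0.739) in RA. Its level in C1q cells was also lower at 7 than at 4 dpf in both conditions, and its log2 ratio in non-cycling macrophages was -0.62 in control and -1.29 in RA. *Spp1* was lower at 7 dpf as well, by -1.26 and -1.04 on the log2 scale, but with the looser gate its log2 ratio in RA was 1.21. Among the genes higher at 7 dpf, *Thbs1* went from 138 to 339 CPM in control and from 211 to 567 CPM in RA. *Cadm1*, an adhesion molecule, went from 17.4 to 50.7 CPM and from 39.1 to 152 CPM, and *Ms4a4c*, a membrane protein of monocytes, from 40.0 to 140 CPM and from 75.3 to 182 CPM. All 3 were also higher at 7 dpf in both conditions without the granule-rich cells. In non-cycling macrophages *Cadm1* was higher at 7 dpf too, with log2 ratios of 1.60 in control and 0.88 in RA. *Thbs1* (-0.21 and -0.63) and *Ms4a4c* (-0.33 and -1.67) were lower there at 7 dpf. *S100a8*, *S100a9*, *Camp* and *Wfdc21* were higher at 7 dpf with all cells, and in RA the first 3 were lower at 7 dpf without the granule-rich cells.

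Cycling was found in every library in each macrophage state described here. With at least 2 UMIs of *Ly6c2* as a state, 4.42%, 7.49%, 9.24% and 6.98% of such macrophages were cycling in control_4d, control_7d, RA_4d and RA_7d, against 5.59%, 2.27%, 5.44% and 1.03% of macrophages without it. The share was higher in 3 of 4 libraries, by a mean of 1.27 on the log2 scale (SD 1.31, n = 4 libraries, exact two-sided sign-flip permutation p = 0.25, where 0.125 is the smallest that 4 libraries allow). Each granule-rich cell held at least 6 UMIs of *Ly6c2*, so that 1, 1, 4 and 3 of the 8, 14, 23 and 6 cycling cells of this state were granule-rich. The shares, the mean and the permutation result of this state include these cells, and no values without them are given. For the state with at least 3 UMIs of *H2-Ab1* the share was lower in 4 of 4 libraries, by a mean of -0.45 (SD 0.43, n = 4, exact permutation p = 0.125), and with doublets left out in 3 of 4 (mean -0.47, exact permutation p = 0.25). For *Spp1* and the *Folr2 Mrc1* state it was lower in 3 of 4, with means of -0.28 and -0.53. In thinned cells the limit was 1 UMI for *H2-Ab1* and 2 for *Spp1*, lowered from 3 and 5. After thinning the means were 1.43 for *Ly6c2*, -0.73 for *H2-Ab1*, -1.03 for *Spp1* (lower in 4 of 4) and -0.34 for *Folr2 Mrc1*. None of these can pass 0.05 with 4 libraries.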

How the data were processed

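The deposited table of each of the 4 libraries holds, for every barcode, UMI counts by gene that the authors made with Cell Ranger 7.0.1 on mm10, per the submitters' processing notes. Values are whole counts with no normalization, and all columns were used. The UMIs of kept cells summed to 108438906, 141714572, 83405494 and 156567619 (control_4d, control_7d, RA_4d, RA_7d). Cells were filtered by the limits of the study's methods. Scrublet (scanpy 1.11.5) called 634 doublets among the 25479 kept cells (2.49%), which were left in and taken out as an alternative. The gate, the gene lists, the states and the tests were chosen with earlier results of these data known, and so were the rules below.

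UMIs were summed per library and class and tested in edgeR 4.0.16 (R 4.3.3; glmQLFit and glmQLFTest, filterByExpr, TMM, library as a block), with the 6 gate genes left out. The contrast with non-cycling macrophages has 3 residual degrees of freedom and that with cycling mesenchymal cells, over 3 libraries, 2. The fit was tested on simulated data. CPM was computed from the sums. Shares have exact Clopper-Pearson intervals and ratios exact conditional intervals (scipy 1.17.1, Python 3.11.15). The mice of a pool are not told apart, so the p-values measure spread between libraries that also differ in condition.

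Named were the gate genes, the cyclins, CDKs and their regulators, up to 5 members of each other list by the size of the difference, the 10 largest rises and falls against non-cycling macrophages (at least 20 CPM and the same direction in each library), the 6 largest differences in each direction against mesenchymal cells within the cell cycle lists, and, for RA against control and 7 against 4 dpf, the 8 largest changes by the smaller of the log2 ratios among genes of at least 50 CPM. Not all of them are reported. The genes of the C1q and *Ly6c2* groups were chosen after their values were seen. Alternatives were DESeq2 1.42.0, no filter on low counts, leaving out each library, thinning, doublets left out, a looser cell filter, stricter and looser gates, the same *Mmp9* and *Col1a1* limits in both classes, all kept cells as the denominator, a pseudocount of 10 CPM and genes of at least 10 UMIs. Matching on UMIs and leaving out the granule-rich cells were added after seeing the data.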

Additional observations from a re-analysis of the deposited data

Results flagged for a closer look

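For 4 lists the median RA to control log2 ratio in cycling macrophages lay on opposite sides of 0 at 4 and 7 dpf and at least 0.25 from it at both times. None of these differences was tested, and other lists, the S-phase and G2/M lists among them, also changed sign with a median closer to 0. The macrophage identity list had median log2 ratios of -0.297 and 0.705 at 4 and 7 dpf. The resident-like list, with *Pf4*, *Mrc1* and *Selenop* among its members, had -0.767 and 1.24. MHC class II genes had -0.469 and 0.852, and inflammatory genes -0.588 and 0.765. In non-cycling macrophages the medians of the resident-like list (-0.58 and 0.53) and of the MHC class II list (-0.40 and 0.23) changed sign as well. The 7 dpf medians rest on 19 cells of RA_7d, and the resident-like medians on 11 genes at 4 dpf and 7 at 7 dpf.

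Macrophages over the upper limits of the cell filter lie outside the comparisons, and many of them were cycling at 4 dpf. By the same gate 23.3% were cycling in control_4d (31 of 133 cells, 16.4% to 31.4%) and 20% in RA_4d (23 of 115, 13.1% to 28.5%). At 7 dpf the shares were 2.75% in control_7d (3 of 109) and 1.59% in RA_7d (1 of 63).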

How the results depend on the processing

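Of 120 values for the main comparisons under alternatives, 99 stayed within the limits set for them and 21 moved. Against non-cycling macrophages, leaving out 1 library gave 1640 to 2857 higher and 1684 to 2471 lower genes, with the fewest higher genes without RA_4d, and thinning gave 1508 and 1419. Against mesenchymal cells thinning gave 1230 higher and 1476 lower genes. With all kept cells as the denominator, the share ratios were 0.291 (RA to control, 7 dpf), 0.292 (7 to 4 dpf, control) and 0.0904 (7 to 4 dpf, RA). Genes higher in RA at both times numbered 8 after thinning, 82 with at least 10 UMIs and 6 without granule-rich cells, and genes lower in RA numbered 11 with a pseudocount of 10 CPM, 4 after thinning and 51 with at least 10 UMIs. Genes higher at 7 dpf in both conditions numbered 7 after thinning, 92 with at least 10 UMIs and 11 without granule-rich cells, and genes lower at 7 dpf numbered 5 with the pseudocount, 2 after thinning, 55 with at least 10 UMIs and 5 with the looser gate. Thinning and the UMI minimum change how many genes are compared, and for the other settings the cause was not tested.

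Among single genes and lists 13 values reversed. Without granule-rich cells the RA to control log2 ratio at 7 dpf was -3.38 for *S100a9*, -1.56 for *Camp*, -1.85 for *Ngp*, -1.26 for *S100a8*, -0.60 for *Wfdc21* and -0.72 for *Lcn2*, and the 7 to 4 dpf ratio in RA was -0.78 for *S100a8*, -3.29 for *Camp*, -4.14 for *S100a9* and -0.68 for *Chil3*. With the looser gate *Spp1* gave 0.50 (RA to control, 7 dpf) and 1.21 (7 to 4 dpf, RA), and *Slc11a1* gave 0.097 at 7 dpf after thinning. RA could not be paired with control, nor 7 with 4 dpf, because no condition had a replicate. The class contrasts do pair the classes within a library.

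RA_7d, with 19 cycling macrophages and 400490 UMIs, limits every value that draws on it. A gene at 10 CPM there is about 4 UMIs. The looser gate takes cells with 1 *Mki67* UMI, and the stricter gate leaves 14 cells in RA_7d.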
